A study of Mus musculus with 8 samples.

Results

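Sarcomeric myosin heavy chains are the motor proteins of the thick filament of striated muscle. The 7 genes described here were chosen by name, with earlier results of these data known. The developmental isoforms are Myh3 (embryonic) and Myh8 (perinatal), and the adult fast isoforms are Myh1 (IIX), Myh2 (IIA) and Myh4 (IIB). The slow and cardiac isoforms are Myh7 (beta, slow) and Myh6 (alpha). All 7 are among the 18194 genes represented on the arrays, and 13 of the 45265 probe sets carry their names. Total RNA of primary mouse myotubes, the multinucleated cells formed by fusion of myoblasts, was hybridised to 2 types of oligonucleotide array, called A and B here. There were 4 RNAs, each on 1 array of each type, so the 8 arrays hold no replicate RNA. The wildtype RNA came from grown myotubes labelled only as wildtype, and the other assigned RNA from grown myotubes labelled truncated Egr-3, a cut-down form of the zinc-finger transcription factor Egr3. RNA275 is labelled with an acclimatization treatment alone and RNA276 with no treatment, so neither was placed in a group and their values are given without comparison between groups. How the truncated protein was made or delivered, the strain, the age and the sex of the animals, and whether cultures were pooled are not given in the labels. By its title the series is about genes under the control of Egr3, and for these isoforms the labels allow a comparison of wildtype with truncated Egr3.

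A myosin heavy chain carries an ATP-splitting head that pulls on actin and a long tail that packs into the filament, and the isoform in a fibre largely sets how fast it shortens. In rodent limb muscle the embryonic and perinatal isoforms appear first, in development and in regenerating fibres, and are then replaced by adult isoforms; cultured myotubes are known for expressing mainly the developmental ones. Myh7 serves slow fibres and the heart ventricle, and Myh6 is the main isoform of the adult mouse heart. The developmental and fast genes lie in a row on chromosome 11 in the order Myh3, Myh2, Myh1, Myh4, Myh8, with Myh13 beyond them and the noncoding RNA gene Myhas between Myh1 and Myh4, while Myh6 and Myh7 lie close together on chromosome 14. The genes are close relatives, and some probe sets are marked by the maker as matching more than 1 transcript.

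The promoters of the chromosome 11 isoforms are shown because they hold letters that the fast genes share with Myh8 and not with Myh3. Each window runs from 250 bases before to 50 after the annotated start, on the plus strand, from RefSeq on GRCm38.p6, and all 7 genes had one. Capitals mark 3 runs of letters on the printed strand: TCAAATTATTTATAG, TTCTAATTATATCC and TATAAA, the letters of the TATA box. Every TATAAA is marked wherever it lies, and in Myh4 a further one begins 213 bases before the start. The windows are chr11:67078050-67078349 for Myh3, chr11:67170777-67171076 for Myh2, chr11:67199852-67200151 for Myh1, chr11:67237562-67237861 for Myh4 and chr11:67276874-67277173 for Myh8.
Myh3: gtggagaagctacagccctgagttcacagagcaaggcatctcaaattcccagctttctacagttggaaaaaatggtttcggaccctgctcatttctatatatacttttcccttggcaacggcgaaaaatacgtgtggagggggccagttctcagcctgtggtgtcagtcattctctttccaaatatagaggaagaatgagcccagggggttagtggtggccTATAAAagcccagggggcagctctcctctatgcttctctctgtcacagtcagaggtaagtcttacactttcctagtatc
Myh2: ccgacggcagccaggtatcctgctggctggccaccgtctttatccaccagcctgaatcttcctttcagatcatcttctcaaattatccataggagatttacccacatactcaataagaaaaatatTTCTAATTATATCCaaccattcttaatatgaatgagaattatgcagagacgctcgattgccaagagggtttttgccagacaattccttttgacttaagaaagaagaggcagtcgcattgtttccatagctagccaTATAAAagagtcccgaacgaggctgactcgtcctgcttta
Myh1: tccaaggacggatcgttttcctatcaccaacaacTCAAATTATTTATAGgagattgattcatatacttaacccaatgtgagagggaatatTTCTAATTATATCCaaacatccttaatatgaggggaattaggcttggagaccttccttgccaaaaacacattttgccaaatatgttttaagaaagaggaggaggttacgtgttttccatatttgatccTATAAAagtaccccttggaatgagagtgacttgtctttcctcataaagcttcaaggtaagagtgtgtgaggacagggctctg
Myh4: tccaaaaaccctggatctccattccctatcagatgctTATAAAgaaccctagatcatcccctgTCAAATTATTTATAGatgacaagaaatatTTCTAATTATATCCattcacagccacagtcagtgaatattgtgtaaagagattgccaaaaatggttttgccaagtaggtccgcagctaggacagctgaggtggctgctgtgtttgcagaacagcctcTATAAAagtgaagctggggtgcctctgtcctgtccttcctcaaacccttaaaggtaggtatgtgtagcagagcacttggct
Myh8: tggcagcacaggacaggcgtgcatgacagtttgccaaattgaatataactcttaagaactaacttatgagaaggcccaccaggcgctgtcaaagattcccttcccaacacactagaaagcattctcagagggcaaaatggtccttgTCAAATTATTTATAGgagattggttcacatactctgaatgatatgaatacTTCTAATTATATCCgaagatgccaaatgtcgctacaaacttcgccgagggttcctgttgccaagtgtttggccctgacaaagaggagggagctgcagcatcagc

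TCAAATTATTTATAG is the longest run of letters common to the Myh1, Myh4 and Myh8 windows, at 15 bases. Searched on both strands, it stood in 3 of 32544 distinct promoter windows of the same length (0.00922%), which were those of these 3 genes. It began 216 bases before the start in Myh1, 187 in Myh4 and 104 in Myh8. The closest stretch of Myh2, tcaaattatccatag, differed at T10C and T11C, counted from the 5′ end of the run. TTCTAATTATATCC, at 14 bases, is the longest run common to Myh1, Myh2, Myh4 and Myh8, and stood in these 4 windows of 32544 (0.0123%). Both runs were picked because these windows share them, so their presence there was fixed beforehand, and the shares are a description only. No run longer than 7 bases was common to those 4 windows and that of Myh3, the developmental gene at the end of the row.

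Known muscle motifs were searched in the same windows on both strands. The MEF2 site, the binding sequence of the MEF2 factors that drive muscle genes, was found in 3 of the 7 members (Myh1, Myh4 and Myh8) and in 3.16% of all windows, and in each member it lay inside the run of 15 bases. That run was picked because these windows share it, so the matches are the same shared letters and not separate finds. The share is a description only. TATAAA was found in 6 members and 13.6% of windows; in Myh8 it was on the reverse strand inside that same run, and in Myh2 and Myh6 it lay after the annotated start. The E-box CANNTG, bound by MyoD and its relatives, was in 5 members against 72.3% of windows. CATTCC, the MCAT element bound by TEAD factors, was in 4 members against 14.6%, and the CArG box of serum response factor was in Myh4 alone against 1.64%. The Egr site GCGNGGGCG was in none of the 7 members' windows and in 5.6% of all windows. A match is a description of letters, and no binding was measured.

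The deposited signals of the 7 genes fell into 3 ranges. Of the 13 probe sets, 6 were above the floor in all 4 RNAs, where the floor is the 50th percentile of the assigned arrays of type A (a signal of 67.6) and the 60th of type B (112.6). These were the probe sets of Myh3, Myh8 and Myh4 and 2 of the 3 for Myh1. Myh2 and Myh7 lay near the floor, and 5 probe sets, including all those of Myh6, were below it in all 4 RNAs. Each label has a single RNA, so there is no check by replicates and no p-value, and the error that could be measured is technical: 100 probe sets present on both array types gave an SD of 0.18 for a single log2 difference between wildtype and truncated Egr3. Those probe sets are bright, with a median at the 86.3 percentile of type A, and the error of dim members was not measured.

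**Figure D1:**
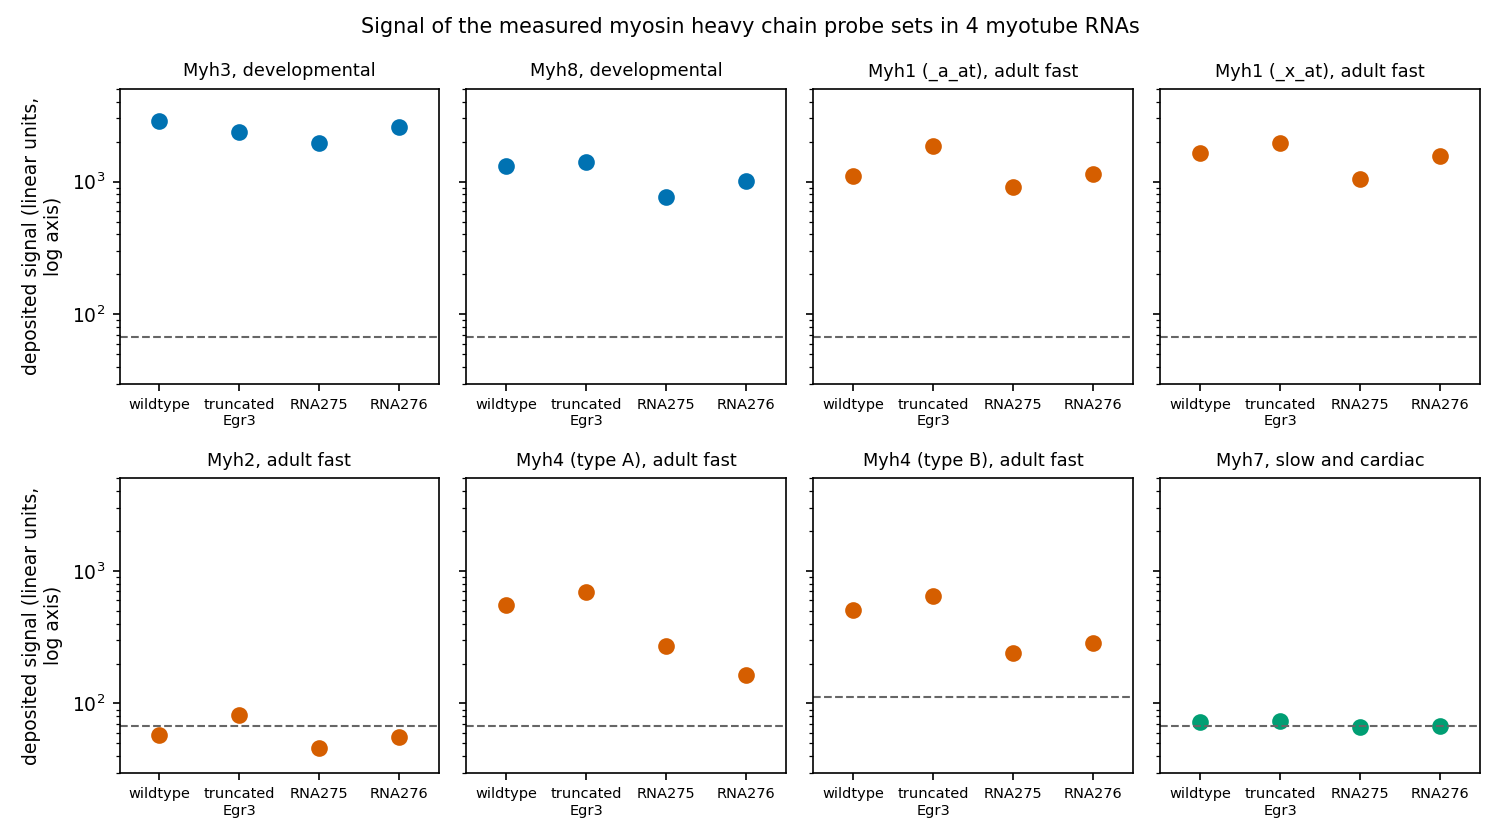
Deposited signal (linear units on a log axis) of the 8 probe sets of single members that were above the floor (dashed) in at least 1 assigned RNA, 1 panel per probe set and 1 point per array in the wildtype, truncated Egr3, RNA275 and RNA276 RNAs. Myh3 lies between 1945 and 2871, Myh4 spans the widest range, and Myh2 and Myh7 sit at the floor.

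Myh3, the embryonic isoform, read 2871 in the wildtype RNA, 2389 in truncated Egr3, 1945 in RNA275 and 2581 in RNA276. It varied least of the isoforms well above the floor, with its highest signal 1.48-fold its lowest. Each step in the order of levels was under 2 technical SDs, but the whole range, 0.56 in log2 from wildtype to RNA275, was beyond them (0.36). Myh3 was also the only measured member with a higher signal in wildtype than in truncated Egr3, by 0.27 in log2 or 1.20-fold. At least as large a difference, in either direction, was found for 39.3% of the 10308 measured genes.

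Myh8, the perinatal isoform, read 1308 in wildtype, 1395 in truncated Egr3, 762 in RNA275 and 1018 in RNA276. Wildtype minus truncated Egr3 was -0.09 in log2, less than 1 technical SD. Its log2 range over the 4 RNAs was 0.87. In the order of the levels, the step from RNA276 down to RNA275 (0.42) was beyond 2 technical SDs of that pair of RNAs, and the steps above it were not.

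Myh1, the fast isoform of IIX fibres, had 2 bright probe sets that gave differences of unequal size in the same direction. By the probe set with the suffix _a_at it read 1094 in wildtype, 1855 in truncated Egr3, 904 in RNA275 and 1142 in RNA276. Here the truncated-Egr3 RNA stood above the other 3. Each of those was within 2 technical SDs of its neighbour in that order, but RNA276 and RNA275 were further apart than 2 technical SDs of that pair (0.30). Wildtype minus truncated Egr3 was -0.76 in log2, or 1.70-fold higher in truncated Egr3. This difference from truncated Egr3 was the largest among the measured members, and 4.38% of measured genes were as far from 0. By the probe set with the suffix _x_at it read 1641, 1956, 1050 and 1552 in the same order of RNAs, with a log2 difference of -0.25 (1.19-fold). Of 9768 pairs of measured probe sets of the same gene, 16.9% were as far apart as these, and the SD over pairs was 0.39. Those pairs have any signal above the floor and include pairs across the array types. They cannot show whether such a gap is usual for bright probe sets on the same arrays.

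The probe sets of Myh1 have annotations that bear on what they read. The suffix _x_at marks probes that can match other transcripts, and the platform annotation derives that Myh1 probe set from the same source sequence as a probe set which it assigns to Myhas. The Myhas probe set read 184 in wildtype, 187 in truncated Egr3, 127 in RNA275 and 142 in RNA276, a log2 difference of -0.03 between the assigned RNAs. The remaining Myh1 probe set was below the floor throughout, at 18.0 in wildtype, 22.4 in truncated Egr3, 3.47 in RNA275 and 3.33 in RNA276, although the annotation gives it the same source sequence as the bright _a_at probe set. Cross-hybridisation between the isoforms was not tested.

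Myh4, the fastest isoform, found in IIB fibres, varied most over the 4 RNAs. On type A it read 556 in wildtype, 698 in truncated Egr3, 270 in RNA275 and 164 in RNA276, so that the highest signal was 4.26-fold the lowest. On type B a different Myh4 probe set read 507, 643, 242 and 286, a 2.66-fold range. Both probe sets put the assigned RNAs above the unassigned ones, and the step from wildtype to the next RNA was 1.04 in log2 on type A and 0.82 on type B, beyond 2 technical SDs on each. They did not give the same order to RNA275 and RNA276: RNA276 was lower on type A by 0.72 and RNA275 lower on type B by 0.24, the latter within 2 technical SDs.

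Between the assigned RNAs, Myh4 differed less, and the array types gave nearly the same value. Wildtype minus truncated Egr3 was -0.33 in log2 for type A and -0.34 for type B, or 1.26-fold and 1.27-fold higher in truncated Egr3. Each is below 2 technical SDs (0.36) on the deposited scale, and past it with equal medians (-0.39 and -0.49). For the probe sets common to the array types, this difference averaged 0.14 higher by type A than by type B, an offset smaller than the Myh4 values.

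Myh2, the fast isoform of IIA fibres, read 57.4 in wildtype, 81.2 in truncated Egr3, 45.9 in RNA275 and 55.96 in RNA276. Only the truncated-Egr3 array was above the floor, so the log2 difference of -0.26 is a bound set by the floor. By these readings Myh2 was at least 1.20-fold higher in truncated Egr3, and the signals without the floor gave -0.50. The error at such dim signals was not measured. The order of the remaining 3 RNAs, all at the floor, carries no meaning.

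Myh7, the slow isoform, read 71.9 in wildtype, 73.3 in truncated Egr3, 66.2 in RNA275 and 67.4 in RNA276, a log2 difference of -0.03 at the edge of the floor. Myh6, the cardiac alpha isoform, was not above the floor in any RNA, at 3.41 in wildtype and 2.54 in truncated Egr3 by 1 probe set and 4.95 and 0.997 by the other. The highest Myh6 signal was 17.4, in RNA275. A further 2 probe sets are annotated to Myh7 and Myh6 together and give no value for either gene: 1 read between 41.5 and 52.2 over the 4 RNAs and the other between 1.27 and 12.03. All 11 cardiac markers, among them Nppa, Nkx2-5, Myl7 and Tnni3, were below the floor in both assigned RNAs, and their summed signal was between 225 and 316 over the 4 RNAs.

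Comparing the isoform classes, the adult fast genes had lower signal in wildtype than in truncated Egr3 and the developmental genes differed in sign from each other. Of the differences that are not bounds, that of Myh1 by the _a_at probe set alone exceeded 2 technical SDs (0.36) on the deposited scale. With equal medians Myh4 did too, at -0.39 on type A and -0.49 on type B. That scaling also moved the median of all measured genes, to -0.05 on type A and -0.17 on type B. The median log2 difference was -0.26 for the 3 adult fast genes, all 3 below 0, where the middle value is that of Myh2 and so a bound, between Myh1 at -0.25 and Myh4 at -0.33, and 0.09 for the developmental pair, with Myh3 above 0 and Myh8 below. Of the slow and cardiac pair, 1 gene was measured, Myh7 at -0.03. Over the 6 measured members the median was -0.17, with 1 above 0 and 5 below, beside a median of -0.00061 over all 10308 measured genes, of which 5147 were above 0 and 5161 below. None of the members reached 2-fold in either direction; among all measured genes 1.66% did, with 1.13% higher in wildtype and 0.534% lower. A count of 0 among 6 genes is near what these shares give, so it says nothing particular about the family.

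**Figure D2:**
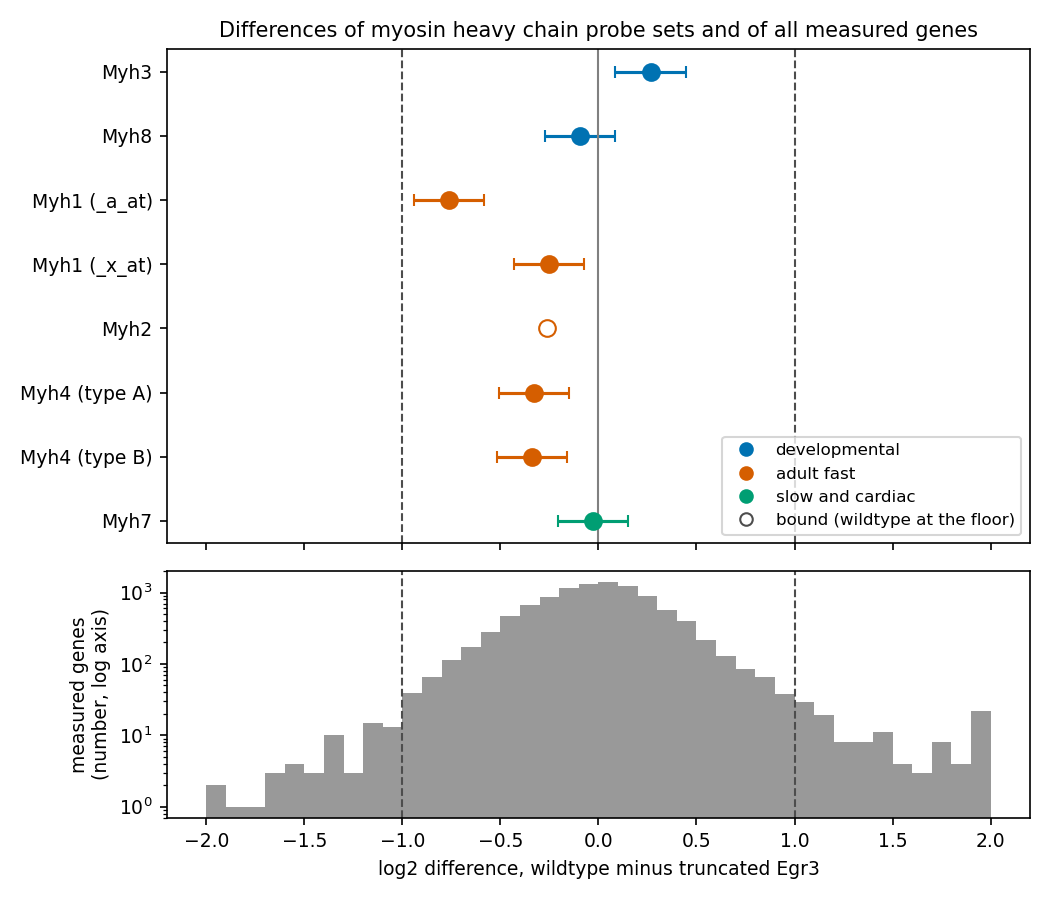
Log2 difference of wildtype minus truncated Egr3 for each measured probe set of the myosin heavy chains (top; bars are 1 technical SD either side, the open point is a bound) and the number of measured genes by the same difference (bottom, log axis, values beyond 2 placed in the end bins). Dashed lines mark 2-fold; every fast point lies left of 0, from -0.76 to -0.25, Myh8 and Myh7 lie at -0.09 and -0.03, and Myh3 lies right of 0.

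The direction of these differences was the same under each scaling and floor that gave a value. With quantile normalization, equal medians and intensity-dependent loess, the floors and the median over probe sets, Myh3 lay between 0.18 and 0.27, Myh8 between -0.16 and -0.09, Myh1 between -0.83 and -0.76 by the _a_at probe set and between -0.32 and -0.25 by the _x_at probe set. Myh4 lay between -0.39 and -0.30 on type A and between -0.49 and -0.25 on type B, where equal medians also moved the median of all genes from -0.03 to -0.17. Myh2 and Myh7 gave no value with the higher floor.

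**Figure D3:**
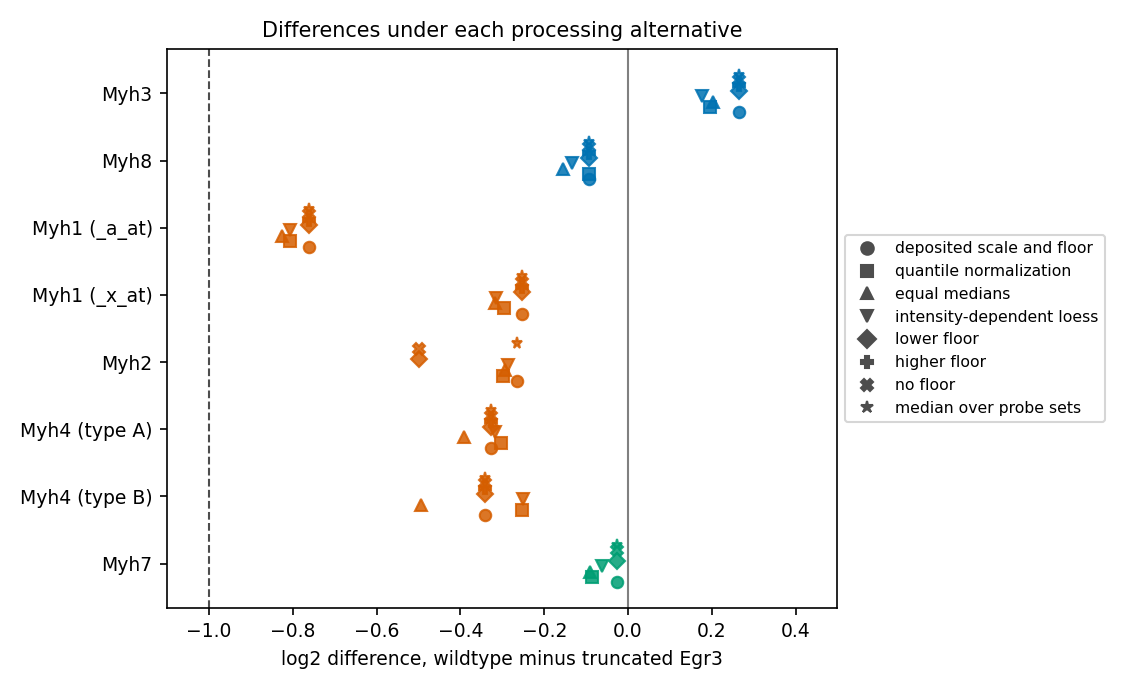
Log2 difference of wildtype minus truncated Egr3 for each measured myosin heavy chain probe set under the deposited scale and 7 alternatives, 1 symbol per setting. No symbol crosses 0 or the dashed line at 2-fold, and the widest spreads are those of Myh4 on type B, from -0.49 to -0.25, and Myh2, from -0.50 to -0.26. For the bright probe sets the symbols differ by scaling alone.

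Of the 6 bright probe sets, 5 had their lowest signal in RNA275, the exception being Myh4 on type A, and 5 had their highest in truncated Egr3, the exception being Myh3. The same counts were found after quantile normalization and with equal medians. Among all 9498 probe sets of type A above the floor in the 4 RNAs, 28.1% were lowest in RNA275 and 25.9% highest in truncated Egr3. The members are not independent readings, since 5 of the 6 come from the same 4 arrays. With equal medians the highest Myh3 signal was in RNA276 (2817) in place of wildtype (2687).

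The pattern of Myh4 over the 4 RNAs was compared with those of 5949 genes above the floor in every RNA on type A, by the root mean square difference of log2 signals centred on their mean. Among members above the floor in all 4 RNAs, Myh4 was the only one whose brightest probe set on type A had a log2 range of at least 1 (2.09). The 3 nearest genes were Neat1 (0.10), Myzap (0.14) and Malat1 (0.14), of which Neat1 and Malat1 encode long noncoding RNAs kept in the nucleus. Neat1 read 569 in wildtype, 790 in truncated Egr3, 264 in RNA275 and 189 in RNA276. Malat1 read 393, 411, 183 and 91.4, and all 7 of its probe sets, some of them partly below the floor, had both assigned RNAs above RNA275 and RNA275 above RNA276. The type B probe set of Neat1 went the other way, with 254 and 311 in the assigned RNAs against 642 and 444.

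Ttn, the giant sarcomere protein titin, which spans the sarcomere from Z-disc to M-band, was looked at after its values had been seen because it had a like pattern. Its brightest type A probe set read 1850 in wildtype, 1627 in truncated Egr3, 704 in RNA275 and 354 in RNA276. All 6 Ttn probe sets had their assigned signals above both unassigned ones. On type A the 3′ beta-actin control over the 5′ one, a measure of RNA integrity, was 1.05 in wildtype, 1.10 in truncated Egr3, 1.14 in RNA275 and 1.13 in RNA276. For Gapdh it was 0.720, 0.823, 0.777 and 0.782 in that order. On type B it was 1.19, 1.11, 1.14 and 1.11 for beta-actin and 0.763, 0.798, 0.802 and 0.832 for Gapdh, so the controls gave the RNAs no single order. The part of RNA quality in the Myh4 pattern was not tested further. Myh1 by its _a_at probe set also had a range of 1.04, and the 3 genes nearest to it were Pecr, Coasy and Gas5, at 0.051, 0.054 and 0.057; this comparison was added after its values were seen.

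**Figure D4:**
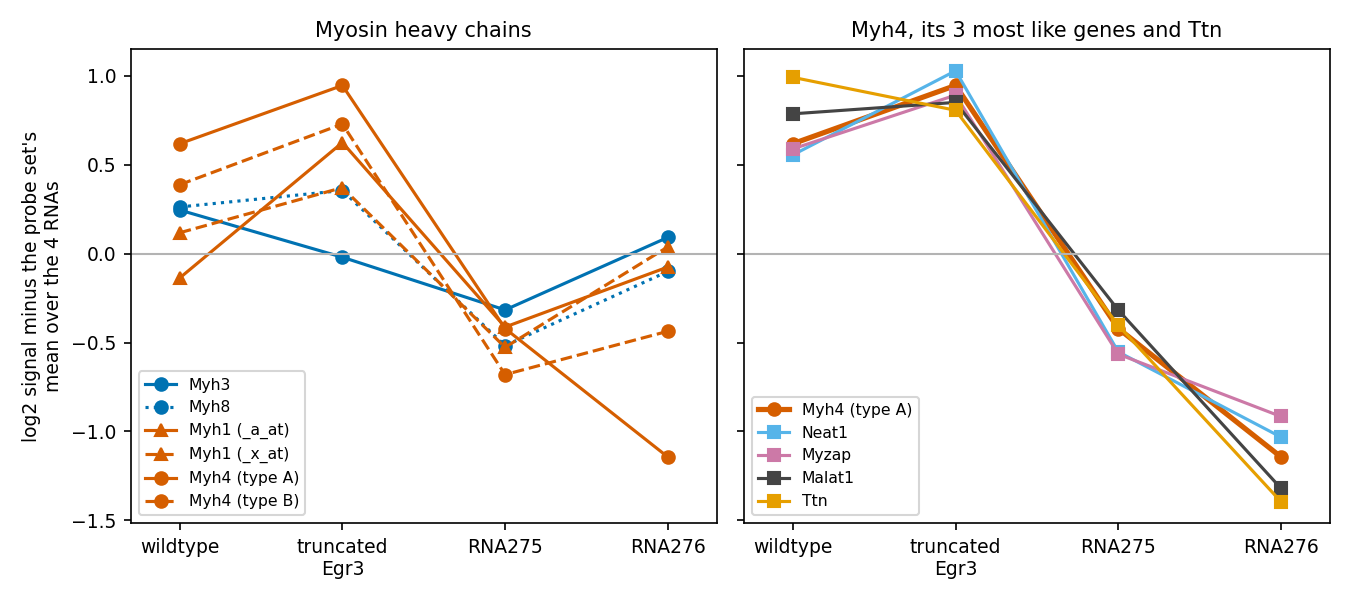
Log2 signal minus the probe set's own mean over the 4 RNAs, for the 6 bright myosin heavy chain probe sets (left; triangles are Myh1, dashed lines the _x_at probe set of Myh1 and the type B probe set of Myh4) and for Myh4 with Neat1, Myzap, Malat1 and Ttn on type A (right). On the right each gene lies above 0 in both assigned RNAs and below 0 in RNA275 and RNA276, from 0.95 in truncated Egr3 to -1.14 in RNA276 for Myh4.

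Most other measured genes of the thick filament had a difference of opposite sign to that of the fast heavy chains. Among 13 measured partners of the filament and M-band, 1 was at least 2-fold higher in wildtype and none lower, 9 were above 0, and the median log2 difference was 0.17. All 9 were read on type A, while Mybpc1, Mybpc2 and Myom3, below 0, were read on type B. For probe sets common to the types, this difference averaged 0.14 higher by type A. That offset is larger in size than Obsl1 (0.06), Myl2 (0.09, a bound) and Myom3 (-0.10). The part of array type in these signs was not tested. Among all 10308 measured genes, 1.13% were at least 2-fold higher and 0.534% lower, and 5147 were above 0. The partner at 2-fold was Mybpc3, cardiac myosin-binding protein C, at 182 in wildtype against 88.4 in truncated Egr3 (log2 difference 1.04, with 301 in RNA275 and 86.8 in RNA276). The light chain Myl1, which binds the neck of fast heavy chains, read 3962 against 2937, a log2 difference of 0.43 and so opposite in sign to Myh1 and Myh4. Mybpc2, the fast myosin-binding protein C, went with the fast heavy chains at 133 against 202 (-0.60). So did Myom1 (-0.63), Myom3 (-0.10) and Mybpc1, at -0.35 by its brightest probe set and -0.02 and -0.05 by the others. Of the bright partners, Mybph (0.44) and Myl1 were beyond 2 technical SDs (0.36), both above 0. Mybpc3 above 0 and Mybpc2 and Myom1 below it also passed that value. These are dim, however, and the technical SD came from bright probe sets, so their error was not measured.

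Fast and slow fibre genes outside the heavy chains lay mostly above 0. Of 13 measured genes of the fast programme 10 were above 0 (median 0.15), and of 15 of the slow programme 12 were (median 0.22), with none at 2-fold in either. Of all 10308 measured genes, 5147 were above 0. The lists were described on the deposited scale alone and were not set beside genes of like signal. They also share genes, so their counts are not separate observations. Myl1, Mylpf, Mybpc2 and Myl2 are thick filament partners too, and Tnnt3, Casq2 and Ttn recur among the myotube markers below. The part of signal level in these directions was not tested. In the slow list the furthest from 0 were Csrp3, a Z-disc protein of slow and stretched muscle, at 394 in wildtype and 689 in truncated Egr3 (-0.81), and Vgll2, a cofactor of TEAD factors, at 1031 and 684 (0.59). The 10 measured genes of myosin folding, assembly and turnover were divided, 5 above and 5 below 0, with a median of 0.02. Cmya5 (0.29) and the chaperone gene Hsp90aa1 (-0.28) were the furthest from 0. Unc45b, the chaperone that folds the myosin head in striated muscle, read 2112 and 2169 (-0.04). Of the sarcomeric-type heavy chains Myh7b, Myh13 and Myh15, only Myh7b had a probe set named for it here, and it read 286 in wildtype, 191 in truncated Egr3, 406 in RNA275 and 201 in RNA276, a log2 difference of 0.58 on type B.

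The labelled cell type was matched by its markers, and lists of other cells are given for what the cultures could hold. All 12 myotube markers, including Myog, Ckm, Acta1 and Mymk, were measured, with a summed signal between 19517 and 22088 and a median log2 difference of 0.17. Myog and Myod1 were furthest from 0, at 0.35 and 0.39. Of 8 fibroblast markers 4 were measured, and Dcn was at least 2-fold higher in truncated Egr3 (157 against 317), while Col1a1 read 4295 against 3417 (0.33) and Col3a1 and Postn differed by -0.08 and -0.17. The summed signal of that list was 9471 in wildtype and 9126 in truncated Egr3, with 7902 in RNA275 and 8759 in RNA276. Of 7 smooth muscle markers 3 were measured (summed signal 4468 to 6179), with Tagln at 0.83 and Smtn at 0.59. Of 8 macrophage markers 2 were measured, Csf1r at 0.08 and Laptm5 at -0.16, with a sum between 371 and 406. Of 8 satellite cell and myoblast markers 4 were measured, with Cd34 at -0.80, Itga7 at -0.15, Cdh15 at 0.14 and Vcam1 at 0.10, and a median of -0.02 (sum 1226 to 1663). In these bulk RNAs fewer myotubes and less RNA of a gene per myotube cannot be told apart, and the part of cell makeup in the heavy chain differences was not tested.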

How the data were processed

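The values were probe set intensities on a linear scale, as deposited by the authors. How the signals were computed and normalized was not given in the sources used here. All 8 arrays had a mean of 150 once 2% was trimmed from either end, so the deposited scale was kept; a shared scale removes any difference common to most genes. Probe sets were named from the platform annotation, updated by gene number to RefSeq symbols (20364 of 20393 with 1 symbol on type A and 14499 of 14674 on type B). The probe set with the highest mean signal stood for a gene, from type A if the gene had one there, and each member was also described by every probe set.

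Signals were floored at the 50th (type A) or 60th (type B) percentile of the assigned arrays and turned to log2. A gene was measured when at least 1 assigned array exceeded the floor, and called at 2-fold. The floor compresses differences of dim genes. No test was possible with 1 RNA per label; the number of arrays limits the precision. The arrays of both types of 1 RNA are not replicates.

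The alternatives were 3 scalings (loess span 0.3), floors 10 percentiles lower and higher, no floor (a minimum signal of 1), the median over probe sets, and thresholds of 1.5-fold and 3-fold. Named were the members, other myosin heavy chains, from each list the genes at 2-fold or else the 2 furthest from 0, and the 3 genes nearest in pattern to a member with a log2 range of at least 1. Members, lists and motifs were chosen with earlier results of these data known. Other genes were named after their values were seen (Ttn, Myhas, Unc45b, Pecr, Coasy, Gas5, Col1a1, Col3a1, Postn, Cdh15, Vcam1, Mybpc1, Mybph, Myom1, Myom3). The calling procedure was tested on simulated data. Python 3.11.15, numpy 2.4.6, pandas 2.3.3, statsmodels 0.14.6 and matplotlib 3.10.9 were used.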

Additional observations from a re-analysis of the deposited data

How the results depend on the processing

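No paired analysis was possible because each label has 1 RNA, and the numbers shared between labels mark the array types of the same RNA. No replicate could be left out for the same reason. The count of members at least 2-fold apart was 0 in each direction under every alternative run except 1: without a floor, 1 member was higher in wildtype, Myh6 at 2.31 in log2 from signals of 4.95 and 0.997, and the median of the slow and cardiac isoforms was 1.14. The count of 0 at 1.5-fold rests on the _x_at probe set, which stood for Myh1. By its _a_at probe set Myh1 was 1.70-fold higher in truncated Egr3. The count of 0 at 3-fold followed from that at 2-fold. The medians of the developmental and adult fast isoforms moved by less than 1 technical SD under each alternative run. With the higher floor neither Myh7 nor Myh6 was measured, so that class had no median. The background counts moved more. Genes at least 2-fold higher in wildtype numbered 116, against 185 with the lower floor, 76 with the higher floor and 1206 without a floor. Genes at least 2-fold lower numbered 55, against 87 with equal medians, 84 with the lower floor and 603 without a floor. At 1.5-fold the counts were 473 higher and 484 lower, and at 3-fold 38 and 8. Myh2 moved from -0.26 to -0.50 with the lower floor and without a floor. Signal near the floor limits what can be said of Myh2, Myh7 and Myh6.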

Other observations

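Myosin heavy chains of nonmuscle and smooth muscle cells were on the same arrays. Myh10, a nonmuscle isoform, read 2083 in the wildtype RNA, 2446 in truncated Egr3, 1957 in RNA275 and 1826 in RNA276 by its bright probe set on type B, a log2 difference of -0.23 between the assigned RNAs. Myh14, also nonmuscle, read 138, 85.3, 274 and 95.5 in the same order, a log2 difference of 0.69. Both probe sets of Myh11, the smooth muscle isoform, were below the floor in all 4 RNAs, at most 13.4.

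The probe sets of Myh9, the nonmuscle isoform of most cells, did not share a pattern. By its brightest probe set on type A Myh9 read 1820 in wildtype, 1345 in truncated Egr3, 578 in RNA275 and 678 in RNA276, and by its type B probe set it read 356, 248, 68.8 and 52.0. By another type A probe set it read 580, 635, 827 and 709. Wildtype minus truncated Egr3 was 0.44 and 0.52 in log2 by the first pair and -0.13 by the last, and -0.21 and -0.46 by the remaining probe sets. The position of each probe set on Myh9 was not analysed here.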
